A study of Mus musculus with 8 samples.

Results

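The cytosolic ribosomal protein genes encode the proteins of the large and the small subunit of the ribosome that translates nuclear-encoded mRNA. They were chosen by symbol: genes named Rpl or Rps with a number, the stalk genes Rplp0, Rplp1 and Rplp2, and Rpsa, with pseudogenes left out. This gave 83 genes, 51 of the large and 32 of the small subunit. Of these, 82 were among the 38293 gene identifiers of the bulk files, 81 among the 15150 gene rows of the single-cell files and 80 in both. Rpl24 was found in the single-cell files only and was not analysed here in bulk, while Rpl3l and Rpl39l were found in bulk only. The genes are spread over 19 chromosomes. The rule itself used no measured value, but it was set with earlier results of these data known.

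Mouse mammary tumor organoids carrying MMTV-PyMT, MMTV-Cre and an E-cadherin mCFP reporter were compared with and without the transcription factor SOX4. The viral MMTV promoter, which is active in mammary epithelium, drives both the oncogene and Cre. Bulk libraries came from 2 control lines (WT1 and WT3) and 3 SOX4KO lines (H7, M4 and H4) made with CRISPR/Cas9. Single-cell libraries came from 1 control line (GR17) and 2 SOX4KO lines (GR18 and GR19). Controls and knockouts shared the tumor model, the reporter and 4 days of growth from dissociated cells in medium with B27 and FGF2. Each line is a clone, so a difference between groups includes whatever differs between clones, and the SOX4KO group is limited to the clones that were picked.

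Each ribosome holds nearly every ribosomal protein in a single copy, and the acidic stalk proteins are an exception. Cells therefore make these proteins in step, and unassembled copies are degraded. Many of the mRNAs begin with a C followed by a run of C and U, the terminal oligopyrimidine (TOP) element, through which mTORC1 and LARP1 adjust their translation. Ribosome production is tied to growth and proliferation, and free RPL5 and RPL11 bind MDM2 when assembly fails.

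The windows around annotated transcription starts show this element for some members. RefSeq promoters of GRCm38.p6 were matched by symbol for 63 of the 83 genes. The windows hold 15 bases before the start and the 15 bases after it, which lie in the first exon. Capitals mark a run of at least 5 C or T from the annotated start, shown for members with a run first and then for members discussed later that have none there. Rpl38 lies at chr11:114668565-114668594 on the plus strand, Rps6 at chr4:86857353-86857382, Rpl35 at chr2:39005117-39005146, Rpl15 at chr14:18270972-18271001 and Rps27 at chr3:90213634-90213663, all on the minus strand. Rplp0 lies at chr5:115559452-115559481, Rps27l at chr9:66946071-66946100 and Rpl22l1 at chr3:28805493-28805522, all on the plus strand.
Rpl38: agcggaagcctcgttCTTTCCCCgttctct
Rps6: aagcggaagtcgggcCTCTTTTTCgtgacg
Rpl35: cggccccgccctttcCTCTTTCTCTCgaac
Rpl15: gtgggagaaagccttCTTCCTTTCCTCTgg
Rps27: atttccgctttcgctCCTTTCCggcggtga
Rplp0: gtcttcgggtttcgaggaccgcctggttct
Rps27l: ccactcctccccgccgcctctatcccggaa
Rpl22l1: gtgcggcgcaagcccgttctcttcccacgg

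A run of at least 5 pyrimidines from the annotated start was present in 16 of the 63 matched genes (25.4%) and in 5.28% of all 27025 genes with a promoter. The share was 63.5% against 42.1% when the run could begin within 10 bases of the start, since annotated starts can lie some bases from the base that is used. These counts include runs that begin with T. Runs from the annotated start that begin with C, as the TOP element does, were present in 13 members (20.6%) against 3.01% of all genes. In the window from 250 bases before to 50 after the start, CCGGAAG, a core of ETS factor sites, was found on either strand in 26 of the 63 genes (41.3%) and in 9.93% of all genes. AAGATGGC, a core of YY1 sites, was found in 9.52% against 3.19%. TATAAA was found in 11.1% against 15.7%. AACAAAG, a core of SOX sites, was found in 1 member (1.59%), Rpl22, against 6.68% of all genes. Absence of these letters says only that they are not in this window.

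The bulk libraries held 3050323 to 4678497 reads on genes and the single-cell libraries 7714119 to 8296953 UMIs (molecules counted by their identifiers, spike-ins left out) in 362 to 369 cells. Sox4 itself, the targeted gene, stood at 295 and 374 normalised CPM (counts scaled to a common library total) in WT1 and WT3 and at 199, 179 and 299 in H7, M4 and H4. In single cells it stood at 118 CPM in GR17, 82.5 in GR18 and 110 in GR19. The groups overlapped in bulk, and the level of an edited transcript does not report on the protein. Luminal markers summed to 3363 and 3417 CPM in the controls and to 2362 to 5151 CPM in SOX4KO lines, and basal markers to 510 and 678 CPM in the controls and to 667 to 1453 CPM in SOX4KO lines, highest in M4. Immune markers summed to 1.79 to 14.4 CPM and endothelial markers to 1.04 to 2.52 CPM, with 6 of 10 and 4 of 6 of them at 0 in all bulk libraries, and fibroblast markers summed to 58.7 to 104 CPM. In bulk, fewer cells of a type and less RNA per cell cannot be told apart.

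The part of the bulk transcriptome taken by ribosomal protein genes overlapped between lines with and without SOX4. Their share of the reads on genes was 3.33% and 3.98% in the controls WT1 and WT3, and 3.13%, 4.10% and 2.66% in the knockout lines H7, M4 and H4. M4 lay above both controls and H4 and H7 lay below both, so the groups overlapped. Control lines averaged 3.66% ± 0.459 (SD, n = 2), and SOX4KO lines averaged 3.30% ± 0.731 (SD, n = 3). The share of mitochondrial genes was also highest in M4, at 7.66% against 3.97% to 5.45% in the other lines, and M4 had the most alignments to several places, 3.28 for each read on a gene against 1.61 to 2.37. Their part in the share of M4 was not tested. The ratio of large to small subunit reads ran from 1.66 in WT1 and 1.68 in WT3 to 1.71 in H7, 1.70 in M4 and 1.74 in H4. All 3 SOX4KO lines lay above both controls in this ratio, and no test was made of it.

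**Figure D1:**
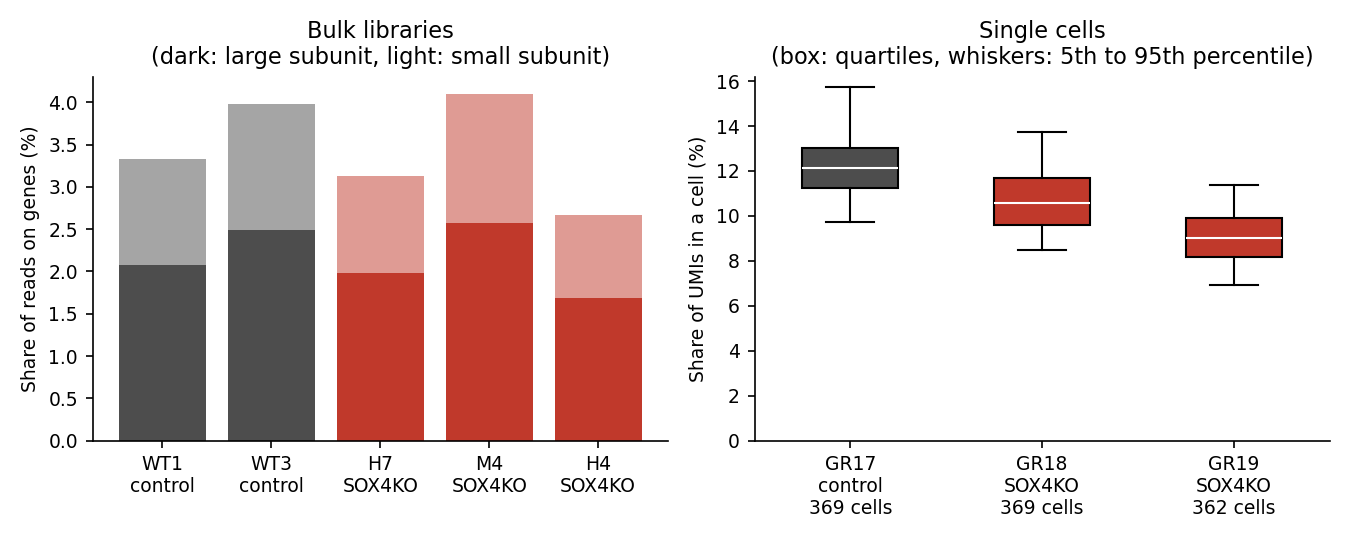
Share of ribosomal protein genes in the reads on genes of each bulk line (left, percent, bars split into large and small subunit) and in the UMIs of each cell of the single-cell libraries (right, percent, boxes for quartiles and whiskers from the 5th to the 95th percentile). The bulk groups overlap, from 2.66% in H4 to 4.10% in M4, while the cell medians are 12.2% in GR17, 10.6% in GR18 and 9.03% in GR19.

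The genes moved together from line to line. Of the 79 members with enough reads to be tested, 73 had their highest level in M4 and 62 their lowest in H4, where 25.7% and 16.7% of all genes tested had theirs. The median member deviated from its mean over the 5 lines by 0.41 in M4 and by -0.33 in H4 on the log2 scale. The controls WT1 and WT3 stood at -0.13 and 0.11 and H7 at -0.08. The highest line exceeded the lowest by 1.36-fold to 2.20-fold, with a median over members of 1.73-fold. Knockout lines thus held both extremes, and the spread within the SOX4KO group was wider than the distance between the groups.

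**Figure D2:**
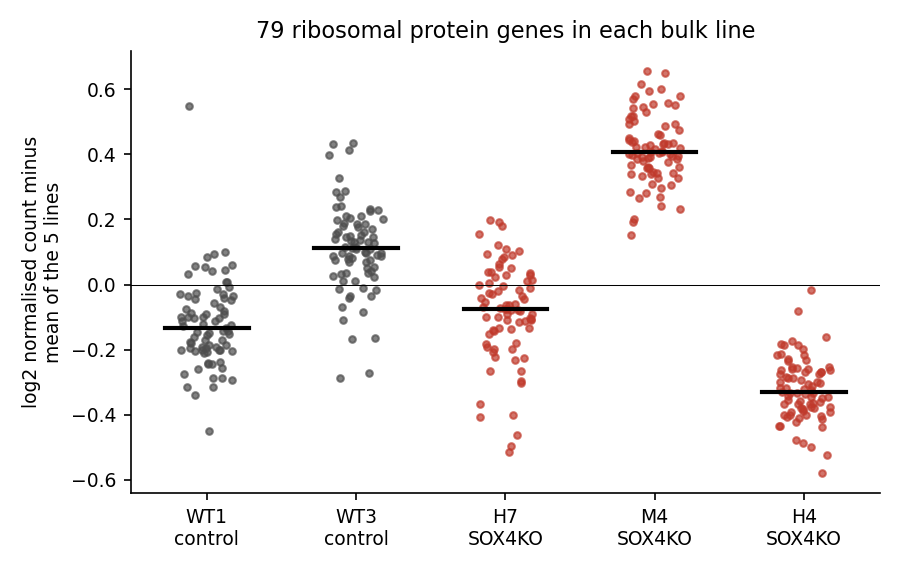
Level of each of the 79 tested ribosomal protein genes in each bulk line, as the log2 normalised count minus its mean over the 5 lines (points are genes, bars are medians). The points of M4 lie above 0 and those of H4 below it, with control medians of -0.13 and 0.11 between them.

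No ribosomal protein gene passed the test between SOX4KO and control lines in bulk. With edgeR's quasi-likelihood test 0 of 79 members passed an adjusted p of 0.1, beside 6.27% of all 11682 genes tested, and the lowest adjusted p of a member was 0.437. DESeq2 also called 0. At an unadjusted p under 0.05 there were 0 members, beside 18.1% of all genes. The median log2 fold change was 0.06, against 0.01 over all genes tested, with 51 members above 0 and 28 below. It was 0.08 over the 47 large subunit genes and -0.02 over the 32 small subunit genes. Every fold change lay between -0.41 and 0.46, with standard errors from 0.20 to 0.36, so changes of that size could not be told from none. In 1 member every SOX4KO line lay above both controls, where 19.0% of all genes had this order, and 0 members had every SOX4KO line below both, where 17.9% of all genes did. Leaving out M4 moved the median to -0.19 and gave 1 call, Rplp1, and leaving out WT1 moved the median to -0.07.

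**Figure D3:**
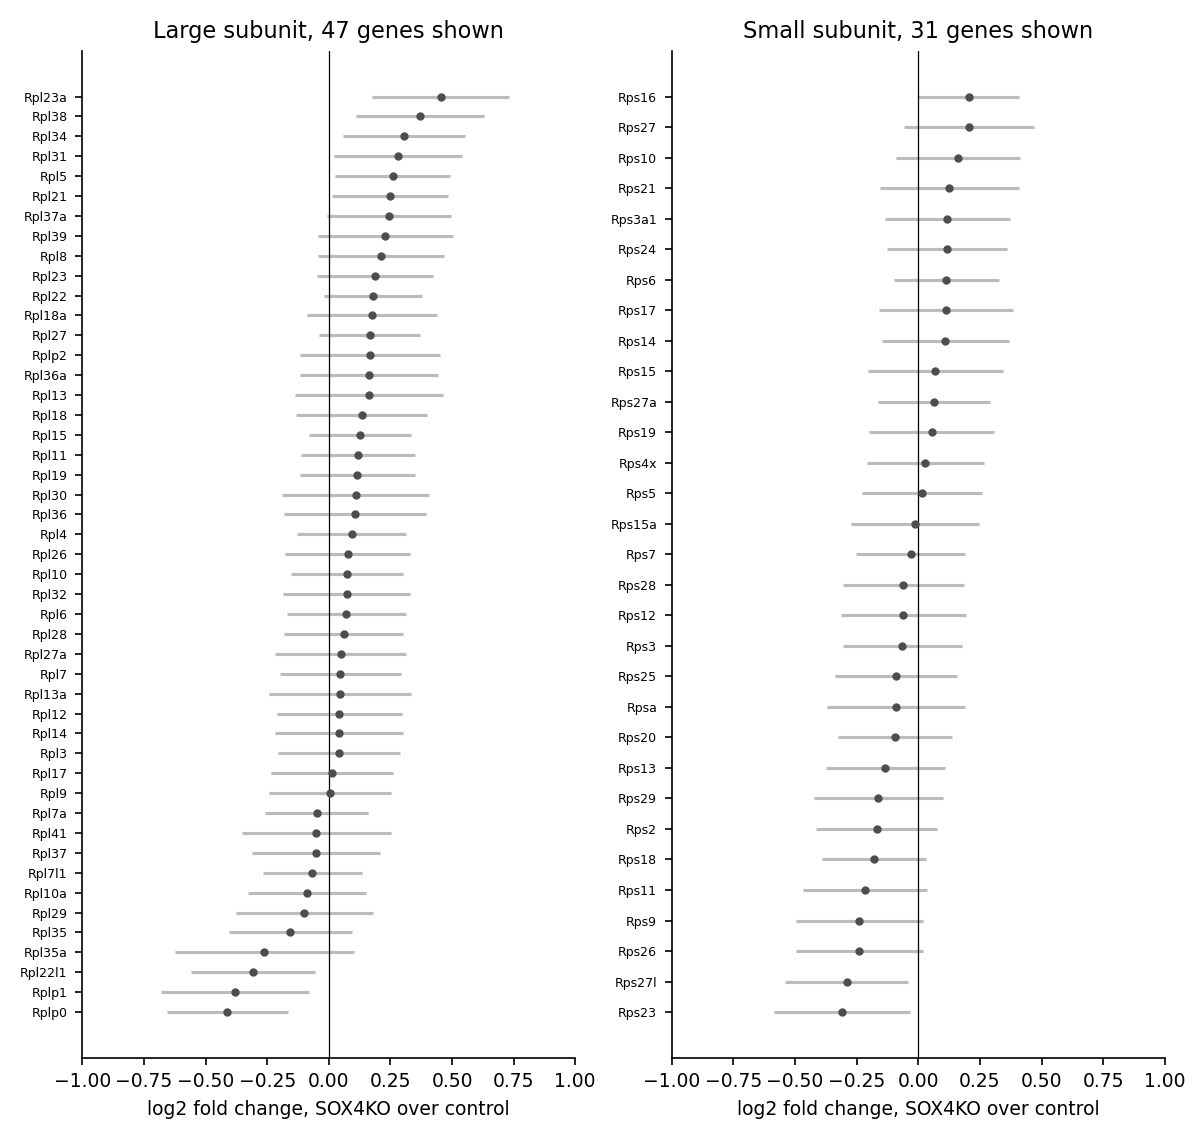
Log2 fold change of SOX4KO over control (points) with its standard error (bars) for the large subunit genes (left) and the small subunit genes (right), from edgeR, with 1 tested member not shown. All values lie between -0.41 and 0.46, and 0 genes passed an adjusted p of 0.1.

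The stalk of the large subunit, which recruits translation factors to the ribosome, held the lowest fold changes. Rplp0, the stalk base, stood at 1636 and 2030 CPM in WT1 and WT3 and at 1268, 1741 and 1125 CPM in H7, M4 and H4. H7 and H4 lay below both controls and M4 between them, for a log2 fold change of -0.41 ± 0.25 (SE) and an adjusted p of 0.437 in edgeR. Rplp1 stood at 1076 and 1372 CPM in the controls and at 720, 1351 and 751 CPM in H7, M4 and H4 (log2 fold change -0.38 ± 0.30, adjusted p 0.577 in edgeR). Rplp2, the partner of Rplp1 in the stalk dimer, did not have this pattern. It stood at 221 and 268 CPM in the controls and at 236, 387 and 201 CPM in H7, M4 and H4, for a log2 fold change of 0.17 ± 0.28.

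Rpl23a and Rpl38 were among the members with the highest fold changes. Rpl23a, a protein at the exit of the nascent chain tunnel, stood at 134 and 149 CPM in the controls and at 191, 262 and 130 CPM in H7, M4 and H4 (log2 fold change 0.46 ± 0.28, adjusted p 0.449 in edgeR). Rpl38, which is known for its role in Hox mRNA translation in the embryo, stood at 312 and 353 CPM in the controls and at 406, 570 and 315 CPM in H7, M4 and H4 (0.37 ± 0.26, adjusted p 0.517 in edgeR). For both genes M4 was the highest line, and the log2 fold changes without M4 were 0.18 for Rpl23a and 0.11 for Rpl38.

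None of the members that signal to MDM2 when assembly fails passed the test. Rpl5 stood at 407 and 468 CPM in the controls and at 545, 633 and 394 CPM in H7, M4 and H4, for a log2 fold change of 0.26 ± 0.23. Rpl11 stood at 293 and 287 CPM in the controls and at 274, 411 and 260 CPM in H7, M4 and H4 (0.12 ± 0.23). Rpl23 and Rpl26, whose proteins also bind MDM2, had log2 fold changes of 0.19 ± 0.24 and 0.08 ± 0.26. The groups overlapped for all 4 genes. Mdm2 had a log2 fold change of 0.06 ± 0.20.

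Other members with known roles, all of the small subunit but Rpl13a, did not pass the test either. Rps6, the substrate of S6 kinase, stood at 585 and 506 CPM in the controls and at 565, 713 and 494 CPM in H7, M4 and H4 (0.11 ± 0.21). Rps3, which sits at the mRNA entry channel, had a log2 fold change of -0.06 ± 0.24, and Rpsa, the laminin receptor precursor, one of -0.09 ± 0.28. Rps19 and Rps14, whose human counterparts are reduced in Diamond-Blackfan anemia and in the 5q- syndrome, had values of 0.05 ± 0.25 and 0.11 ± 0.26. Rps26, which sits at the mRNA exit channel, stood at 551 and 650 CPM in the controls and at 467, 677 and 383 CPM in H7, M4 and H4 (-0.24 ± 0.26). Rps27a, made as a fusion with ubiquitin, and Rpl13a, a target of interferon-dependent release, had values of 0.06 ± 0.23 and 0.04 ± 0.29.

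Taken as shares of the ribosomal protein reads themselves, a scale chosen after seeing the data, the groups were apart for about as many members upward as downward. On this scale every SOX4KO line lay above both controls for 20 of the 79 members, beside 12.0% of all genes tested on the same scale, and below both for 19, beside 10.1%. On normalised counts these shares of all genes were 19.0% and 17.9%. Dividing by the members' reads takes the shared movement of the members out of them and carries it into the other genes. The shares of members and of all genes on this scale are therefore not like for like. Rplp0 took 5.21% and 5.47% of the ribosomal protein reads in WT1 and WT3 and 3.93%, 3.87% and 4.15% in H7, M4 and H4. Rplp1 took 3.43% and 3.70% in the controls and 2.23%, 3.0% and 2.77% in H7, M4 and H4. Rplp0 and Rplp1 were therefore lower in all 3 knockout lines once the shared movement of the set was divided out. The third stalk gene, Rplp2, went the other way. It took 0.704% and 0.723% in the controls and 0.732%, 0.861% and 0.740% in H7, M4 and H4. Rps26 took 1.75% in both controls and 1.45%, 1.51% and 1.41% in H7, M4 and H4.

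Among the members with larger shares in SOX4KO lines, Rpl38 took 0.995% and 0.953% in the controls and 1.26%, 1.27% and 1.16% in H7, M4 and H4. Rpl23a took 0.428% and 0.402% in the controls and 0.592%, 0.584% and 0.480% in H7, M4 and H4. The groups did not overlap for these genes either. Rpl5 took 1.30% and 1.26% in the controls and 1.69%, 1.41% and 1.45% in H7, M4 and H4. Rps14 and Rplp2 also lay higher in all 3 SOX4KO lines. An edgeR fit over all genes with the ribosomal protein reads as the library size called 0 members, the lowest adjusted p being 0.835 for Rplp0. A share within the set can only rise where another falls, so these counts describe composition and not amounts.

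**Figure D4:**
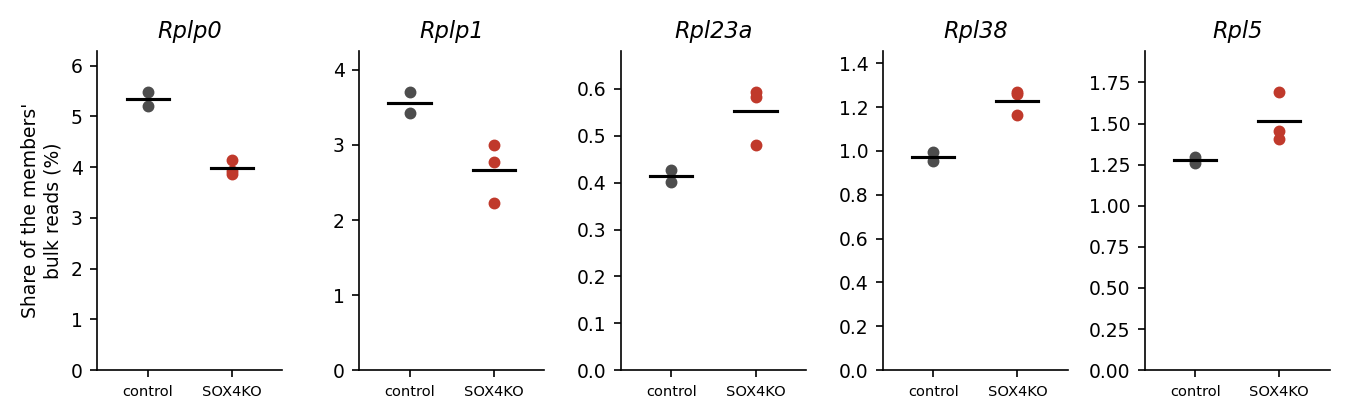
Share of the ribosomal protein reads (percent) taken by 5 genes in each bulk line (points) with the group mean (bars), on axes from 0. For each of these genes the 3 SOX4KO lines do not overlap the 2 controls, with Rplp0 and Rplp1 lower and Rpl23a, Rpl38 and Rpl5 higher.

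The paralogs, copies of ribosomal protein genes with their own regulation, were counted below their parent genes in bulk. In single cells the order was not kept for Rps27l, at 434 CPM in GR17 against 1.81 CPM for its parent Rps27. Rps27l, which the tumor suppressor p53 activates, stood at 58.0 and 66.3 CPM in the controls and at 39.4, 68.8 and 45.3 CPM in H7, M4 and H4 (log2 fold change -0.29 ± 0.25, adjusted p 0.613 in edgeR). Its parent Rps27 had a log2 fold change of 0.20 ± 0.26. Rpl22l1, which is known to be held down by RPL22, stood at 38.6 and 51.8 CPM in the controls and at 29.7, 47.9 and 32.8 CPM in H7, M4 and H4 (-0.31 ± 0.25, adjusted p 0.593 in edgeR). Its parent Rpl22 stood at 388 and 427 CPM in the controls and at 475, 526 and 385 CPM (0.18 ± 0.20). Of their shares of the ribosomal protein reads, those of Rps27l and Rpl22l1 were lower in every SOX4KO line than in both controls, and those of Rps27 and Rpl22 overlapped.

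Rpl7l1, a nucleolar relative of Rpl7, had a log2 fold change of -0.07 ± 0.20, beside 0.05 ± 0.25 for Rpl7. The germ line and muscle paralogs were at or near 0. Rpl39l had 0 reads in every line, Rpl3l had 1 read in WT3 only, and Rpl10l had 1 and 2 reads in WT1 and WT3 and 0 in H7, M4 and H4. Their parents Rpl39, Rpl3 and Rpl10 had log2 fold changes of 0.23 ± 0.27, 0.04 ± 0.25 and 0.07 ± 0.23. Rps4l was left out as a pseudogene, and Rps4x, the X-linked gene it resembles, had a value of 0.03 ± 0.24. Reads of near-identical copies can be split or discarded in counting, so levels of these genes are uncertain.

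Although the proteins are made in step, the counted levels of the genes were not alike. Per kilobase of coding sequence, the mean over the 5 lines ran from 24.2 CPM for Rpl35a and 25.8 for Rpl29 to 3082 for Rplp1 and 4115 for Rpl41, with a median of 761 over the tested members. Rpl41, the smallest member, and Rplp1 were followed by Rps15 at 1956, while Rpl22l1 was the third lowest at 110. The order differed between the assays. Rpl35a stood at 8.88 CPM (mean of the bulk controls) and at 1555 CPM in GR17, and Rpl29 at 12.8 and 448 CPM.

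The opposite held for another group of genes. Rplp2 stood at 245 CPM in the bulk controls and at 1.17 CPM in GR17, Rps27 at 304 and 1.81 CPM, Rpl26 at 290 and 1.81 CPM, Rpl37 at 345 and 6.61 CPM, and Rps15a at 372 and 8.04 CPM. In all, 9 of the 80 genes in both assays stood under 20 CPM in GR17, and 5 of these stood above 100 CPM in bulk. Over the 80 genes the bulk control mean and GR17 had a Spearman correlation of 0.434, given as a description across genes. Ribosomal protein genes have many processed pseudogenes, and reads on the annotated loci named as their pseudogenes came to only 1.90% to 2.17% of the members' bulk reads. How multiply aligned reads were treated in each assay bears on such values and was not tested.

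Of 116 tested ribosome biogenesis genes, which process rRNA and assemble subunits, 0 were called by edgeR and 1 by DESeq2 at an adjusted p of 0.1, and 18 had an unadjusted p under 0.05, a share below the 18.1% over all genes. Their median log2 fold change was -0.23, 96 lay below 0, and in 55 of them every SOX4KO line lay below both controls, a larger share than the 17.9% over all genes. Without M4 edgeR called 4 of them lower, and without H4 it called 2. Of 47 translation factors 0 were called (1 with p under 0.05 unadjusted, and 0 by DESeq2), with a median of -0.02 and every SOX4KO line below both controls for 7. Of 76 mitochondrial ribosomal proteins, which serve the separate ribosome of mitochondria, 0 were called (3 with p under 0.05 unadjusted, and 0 by DESeq2), with a median of -0.11 and every SOX4KO line below both controls for 9. No test of a difference between the lists was made.

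Among 21 tested regulators of ribosomal protein synthesis 1 was called. Ddit4, an inhibitor of mTORC1 induced by stress, rose from 139 and 166 CPM in the controls to 255, 253 and 233 CPM in H7, M4 and H4 (log2 fold change 0.69 ± 0.17, adjusted p 0.0765 in edgeR, from 0.00711 to 0.59 over the alternatives). The call was lost without WT1, without WT3 and without H7, at log2 fold changes of 0.57 to 0.83, and with the ribosomal protein reads as the library size. Myc, a driver of ribosome production, had a log2 fold change of -0.19 ± 0.21. Of 11 genes with TOP mRNAs or encoding ribosomal proteins under other names 0 were called (1 with p under 0.05 unadjusted), and of 18 ribosome rescue and nascent chain genes 0 (0 with p under 0.05 unadjusted). Cell cycle genes moved with the groups, as 9 of 41 S phase and 14 of 52 G2M genes fell and 0 rose. Of 6 basal markers 1 rose, 5 lay above 0 and the median on the log2 scale was 0.74. Of 12 luminal markers 1 rose, with a median of -0.31, 8 below 0 and 5 with every SOX4KO line below both controls. The part of cell cycle and marker genes in the values above was not tested.

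Single cells gave a lower share of ribosomal protein UMIs in both SOX4KO libraries. GR17 gave 12.05% of its UMIs to these genes, with an exact 95% binomial interval from 12.03% to 12.07%. For GR18 the share was 10.5%, with bounds of 10.50% and 10.54%. For GR19 it was 9.05%, with bounds of 9.03% and 9.07%. With 1 control library there is no test of the condition, and the intervals cover counting error only. Both subunits were lower, from 7.21% and 4.85% in GR17 to 6.32% and 4.20% in GR18 and 5.42% and 3.63% in GR19, and their ratio was 1.49, 1.51 and 1.49. Mitochondrial transcripts took 11.4%, 12.5% and 15.1% of UMIs and the rRNA precursor Rn45s 5.01%, 3.38% and 6.01% in GR17, GR18 and GR19. With both left out of the total the ribosomal protein share was 14.4%, 12.5% and 11.5%.

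The shift was present across the cells of each library. The median cell gave 12.2% of its UMIs to these genes in GR17, 10.6% in GR18 and 9.03% in GR19, with quartiles of 11.3% and 13.0%, 9.58% and 11.7%, and 8.18% and 9.90%. In GR18 81.6% of cells and in GR19 97.5% of cells lay below the median cell of GR17. Ribosomal protein UMIs per cell had medians of 2399, 2183 and 1964, while all UMIs per cell had medians of 19845, 20525 and 21876. Spike-in UMIs per cell had medians of 156, 330 and 175.5, so the order of the totals depends on whether they are set against the spike-ins. The SD of the share over cells was 1.92, 1.92 and 1.40 percentage points, against 0.258, 0.239 and 0.211 that counting alone would give. Each library was a plate of its own, so plate and line cannot be told apart.

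The share was also taken by cell cycle expression within each library. In the third of cells with the lowest share of S and G2M genes its median was 12.4% in GR17, 10.5% in GR18 and 8.91% in GR19, and in the third with the highest it was 12.1%, 10.3% and 8.96%. In both groups of cells GR17 had the highest median and GR19 the lowest. The groups were cut within each library, so they were not matched in cell cycle expression between libraries. In the lowest group the median share of S and G2M genes was 0.464% in GR17, 0.179% in GR18 and 0.182% in GR19. In the highest group it was 1.30%, 1.23% and 1.23%. The part of cell cycle expression in the shift of the ribosomal protein share was not tested. Across cells the Spearman correlation of the ribosomal protein share with the share of translation factors was 0.289, 0.403 and 0.468 (369, 369 and 362 cells), and with mitochondrial ribosomal proteins 0.348, 0.206 and 0.355. With mitochondrial transcripts it was -0.24, -0.0877 and 0.0899, so its sign was not shared by the libraries, and with luminal markers -0.0688, -0.0475 and 0.0371. These are shares of the same UMIs in a cell, which ties them to each other, and they are given as descriptions.

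At the level of genes 66 of the 72 members past 20 CPM were lower in both SOX4KO libraries, where 42.5% of all 6303 genes were. The median log2 difference was -0.23 in GR18 and -0.42 in GR19, against 0.01 and -0.05 over all genes. All 72 were lower in GR19 than in GR18, beside 59.1% of all genes, so the 2 knockout libraries differed from each other as well. The counting interval lay below that of GR17 for 62 members in GR18 (23.3% of all genes) and for 71 in GR19 (29.1%). These intervals narrow as UMIs rise, so a gene with many UMIs can lie apart at a small difference. Rpl5, with 18895 UMIs in GR17, did so in GR18 at a log2 difference of -0.04. The share over all genes, which holds genes down to 20 CPM, is therefore not a like comparison. The differences were modest, and 0 members passed 1.5-fold in both libraries, where 2.65% of all genes were lower and 5.39% higher by that much. In GR19 alone 19 members were lower by over 1.5-fold, beside 6.93% of all genes. Rps29 came closest to the limit of 0.59 in both libraries, at -0.58 in GR18 and -0.95 in GR19.

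Short members were lower by more on the median, with exceptions at single genes. Rps29, a small zinc-binding protein, stood at 1012 CPM in GR17, 677 in GR18 and 523 in GR19. Rpl41, the shortest, stood at 3504, 2688 and 1945 CPM, and Rpl38 at 2905, 2151 and 1624 CPM. Rpl29, of 480 bases, had the lowest log2 difference in GR19, at -1.02, and stood at 448, 326 and 221 CPM. Rpl39, the second shortest at 153 bases, differed by -0.27 and -0.47, near the medians of the set. Rpl4, the longest of the tested members by coding sequence, stood at 4109, 4161 and 4142 CPM and was the 1 member that was higher in both libraries, by log2 differences of 0.02 and 0.01. Its intervals overlapped. Rpsa stood at 3730, 3820 and 3311 CPM, Rps6 at 3485, 3345 and 3145 CPM and Rpl5 at 2449, 2381 and 2262 CPM.

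Over the 24 shortest members, with coding lengths of 138 to 411 bases, the median log2 difference was -0.38 in GR18 and -0.62 in GR19. Over the 24 longest, of 588 to 1257 bases, it was -0.13 and -0.30. The Spearman correlation with coding length was 0.616 in GR18 and 0.652 in GR19 over the 72 members, and 0.00592 and 0.155 over 5890 other genes. Other genes in the coding length range of the shortest members had medians of -0.06 and -0.24. In bulk the correlation with length was -0.0272 over 79 members, and the same shortest and longest members had median log2 fold changes of 0.07 and 0.05. These are descriptions across genes, which are not replicates.

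**Figure D5:**
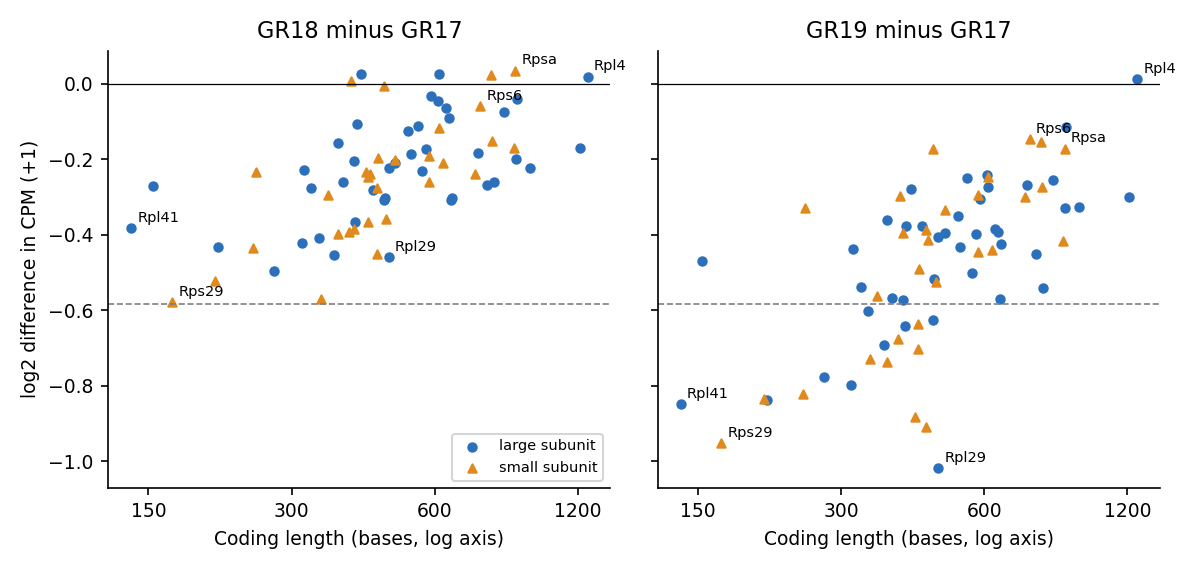
Log2 difference in CPM (with 1 CPM added) of each of 72 ribosomal protein genes between a SOX4KO and the control single-cell library against coding length (bases, log axis), GR18 left and GR19 right. Points are genes by subunit and the dashed line marks 1.5-fold. Points of short genes lie lower on the median, the lowest point in GR19 is Rpl29 with 480 bases, and Rpl4, the longest, lies near 0.

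The members described by role in bulk, none of which was called there, were mostly lower in the single-cell SOX4KO libraries. Rplp0 stood at 2610, 2236 and 2080 CPM and Rplp1 at 2774, 2090 and 1829 CPM in GR17, GR18 and GR19. Rpl23a, which had the highest log2 fold change in bulk, stood at 1869, 1508 and 1210 CPM. Among the genes that bind MDM2, Rpl11 stood at 1511, 1328 and 1119 CPM and Rpl23 at 2596, 2641 and 2138 CPM. Rps19 stood at 985, 830 and 605 CPM, Rps14 at 1062, 776 and 565 CPM and Rps26 at 304, 204 and 183 CPM. Rpl24, a late-joining large subunit protein not analysed here in bulk, stood at 958, 776 and 669 CPM.

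Rps27a and Rpl13a differed by less than the median member in both libraries. Rps27a stood at 1675, 1666 and 1486 CPM and Rpl13a at 1197, 1158 and 1013 CPM. Rps3 stood at 1185, 1004 and 962 CPM, with a log2 difference of -0.24 in GR18 and -0.30 in GR19. The paralog Rps27l stood at 434, 369 and 345 CPM and Rpl7l1 at 156, 137 and 129 CPM. Members with a pyrimidine run at the annotated start and members without one had medians of -0.26 and -0.23 in GR18 and of -0.41 in both groups in GR19, over 13 and 40 genes.

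The change in composition was set side by side between the assays. Of all 72 members past 20 CPM in single cells, 36 had a lower share of the ribosomal protein UMIs in both SOX4KO libraries and 24 a higher share. Of these members, 35 were also tested in bulk and had a share of the ribosomal protein reads that lay apart between the bulk groups. In bulk 18 of the 35 were higher and 17 lower. Members apart in bulk but under 20 CPM in single cells, such as Rplp2, are not among the 35. Of the 17 lower ones 12 also had a lower share of the ribosomal protein UMIs in both SOX4KO libraries, 1 had a higher share, Rpsa, and 4 were split. Rplp0 was among the split ones, at 2.17%, 2.13% and 2.30% in GR17, GR18 and GR19. Rplp1, Rps26, Rps29, Rpl35 and Rps12 were among those lower in both assays. Of the 18 higher ones 6 were higher in both libraries, among them Rpl5, Rpl15 and Rpl23, and 9 were lower, among them Rpl38 and Rpl23a, the same shares as over all 72. Of the 36 members that overlapped in bulk 17 were higher in both libraries and 14 lower. Over 71 members the Spearman correlation of the bulk fold change with the single-cell difference was 0.211 for GR18 and 0.112 for GR19.

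Over all 6303 genes past 20 CPM, 42.5% were lower in both SOX4KO libraries and 2.65% were lower by over 1.5-fold in both. Of 101 ribosome biogenesis genes, 89 were lower in both, with medians of -0.40 in GR18 and -0.35 in GR19. Of the 101, 11 were lower by over 1.5-fold in both, among them the nucleolar proteins Fbl and Nhp2. Of 45 translation factors 37 were lower in both, with medians of -0.19 and -0.20, and 0 passed 1.5-fold. Of 74 mitochondrial ribosomal proteins 56 were lower in both, with medians of -0.19 and -0.25, and 2 passed 1.5-fold lower. Regulators of ribosomal protein synthesis, which include both Myc and the inhibitor Ddit4, had medians of 0.01 and 0.09, with 7 of 18 lower in both and 8 higher. Of these regulators 3 were lower by over 1.5-fold in both, Myc, Trp53 and Akt1, and 0 were higher by that much. Myc had log2 differences of -0.62 and -0.63. Of 16 rescue and nascent chain genes 9 were lower in both, with medians of -0.04 and -0.19. S phase and G2M genes had medians of -0.41 and -0.35 in GR18 and -0.31 and -0.34 in GR19, and their part in these values was not tested. Luminal markers had medians of 0.28 in GR18 and 0.72 in GR19 over 10 genes and basal markers of 0.07 and -0.64 over 5, and their part was not tested either. Genes encoding ribosomal proteins under other names or with TOP mRNAs were also lower, 12 of 13 in both libraries, and 1 passed 1.5-fold. Fau, a ubiquitin-like fusion, stood at 941, 780 and 623 CPM in GR17, GR18 and GR19.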

How the data were processed

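The authors deposited raw HTSeq counts of reads per gene (bulk) and raw UMI counts per gene and well (single cells), without normalization. The submitters' processing notes name STAR 2.4.2a, HTSeq, Picard, R 3.6.1, Seurat, edgeR and DESeq, and the builds NCBIM37 and mm9. Symbols, gene types and coding lengths came from GENCODE M21 of GRCm38, so annotation coordinates were not used. Members and lists were chosen with earlier results of these data known. Bulk counts were fitted in edgeR 4.0.16 (R 4.3.3, filterByExpr, TMM, quasi-likelihood test, Benjamini-Hochberg adjustment over all genes, threshold 0.1), with DESeq2 1.42.0 as an alternative. Each standard error is the absolute fold change divided by the square root of F. Wells with at least 1000 UMIs were kept and summed by library, and genes with a mean of 20 CPM were compared as log2(CPM + 1). Doublets were not called. Intervals are exact (Clopper-Pearson or Poisson, 95%). Genes were named by role, as paralogs, by the 5 lowest p and by level per kilobase. Of the genes these rules or lists hold, 2 are not reported here. Genes outside the set were given by counts, and those named from them in single cells were chosen after their values were seen. The fits were tested on simulated data, where edgeR recovered 191 of 194 genes changed 3-fold in the bulk design of 11488 genes, with 30 false calls. p-values measure the spread between bulk libraries, each from its own line, so clone, culture and library cannot be told apart in it.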

Additional observations from a re-analysis of the deposited data

How the results depend on the processing

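Counts of called members stayed at 0 higher and 0 lower under DESeq2, DESeq2 size factors and no filter. They also stayed at 0 with library sizes without members and mitochondrial genes and with added pseudogene loci. An adjusted p under 0.05 could only give 0 as well, since 0 members passed 0.1. Leaving out 1 bulk line gave 0 to 1 members called lower, the 1 being Rplp1 without M4. The members' median log2 fold change ranged from -0.19 to 0.22 when 1 line was left out and from 0.03 to 0.06 under the other settings, of which the library size of members' reads was chosen after seeing the data. The SOX4KO minus control share ranged from -0.76 to -0.03 percentage points when 1 line was left out. Of biogenesis genes, DESeq2 called 1 lower and no filter called 4, while leaving out 1 line gave 0 to 4. Of translation factors, no filter called 1 lower. In single cells 1 member passed 1.5-fold lower in both libraries with mitochondrial genes and Rn45s left out, and leaving out 1 knockout library gave 0 to 19. No paired analysis was possible because the lines are independent clones and share no replicate numbers in the labels. Directions of uncalled named members changed only on leaving out 1 line, with these log2 ranges: Rpl10 -0.10 to 0.23, Rpl11 -0.12 to 0.24, Rpl13a -0.28 to 0.22, Rpl23 -0.00216 to 0.34, Rpl26 -0.15 to 0.26, Rpl29 -0.26 to 0.012, Rpl3 -0.21 to 0.19, Rpl35a -0.63 to 0.20, Rpl39 -0.077 to 0.44, Rpl41 -0.42 to 0.14, Rpl7 -0.13 to 0.22, Rpl7l1 -0.23 to 0.12, Rplp2 -0.17 to 0.35, Rps14 -0.12 to 0.32, Rps15 -0.21 to 0.25, Rps19 -0.17 to 0.25, Rps27 -0.013 to 0.45, Rps27a -0.17 to 0.20, Rps3 -0.26 to 0.094, Rps4x -0.16 to 0.18, Rps6 -0.047 to 0.23 and Rpsa -0.41 to 0.079. With 2 control lines, standard errors of 0.20 to 0.36 limit what could be seen. The causes of these shifts were not tested.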
